A study of Mus musculus with 6 samples.

Results

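Hox genes of the Hoxa and Hoxb clusters were examined in haematopoietic stem and progenitor cells that had lost Med12. The set held 10 genes of the 18193 on the arrays: Hoxa3, Hoxa5, Hoxa7, Hoxa9 and Hoxa10 of the Hoxa cluster, and Hoxb2, Hoxb3, Hoxb4, Hoxb5 and Hoxb6 of the Hoxb cluster. They were taken as a list of named genes, and every probe set that the platform annotation assigns to 1 of these symbols and to no other gene was taken, which gave 18 of 45037 probe sets, 11 for Hoxa and 7 for Hoxb. The arrays measured total RNA of mouse bone marrow cells sorted by FACS as lineage-negative, c-Kit-positive and Sca1-positive, the fraction that contains stem cells and multipotent progenitors. The 3 knockout arrays came from Med12Flox;MxCre mice, in which the floxed gene is deleted by a Cre recombinase under the interferon-responsive Mx promoter, and the 3 control arrays from mice labelled only as controls, whose Med12 alleles and Cre status are not given in the sources used here. Both groups had a B6/129 background and carry the same label of pI:pC at 4 days. This agent, a mimic of viral RNA, triggers interferon and so switches the promoter on. Mx-Cre is active in many interferon-responsive cells, not in blood cells alone. Nothing in the labels says that each array came from a separate animal or whether animals were pooled, so the tests measure the spread between these samples, which may be technical.

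Hox proteins are homeodomain transcription factors whose genes lie in clusters, in the order in which they act along the body axis, with the low-numbered genes at the 3′ end. In blood formation many Hoxa and Hoxb genes are most active in stem cells and early progenitors and are shut down as cells mature. Their proteins bind DNA together with TALE homeodomain partners of the PBX and MEIS families, trithorax complexes built around MLL (Kmt2a) keep the clusters active, and Polycomb complexes silence them. Med12 belongs to the kinase module of Mediator, which joins enhancer-bound factors to RNA polymerase II.

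RefSeq promoter windows (GRCm38.p6; 250 bases before to 50 bases after an annotated start) were found for 6 of the 10 members, in 7 entries, because Hoxa10 has 2. Those of the 4 Hoxa genes whose knockout signals all lay below the control signals are shown with that of Hoxb4, the only Hoxb member with an entry. That 1 window cannot stand for the Hoxb cluster, so the clusters' start regions are not compared. Each window is written 5′ to 3′ on the gene's strand, with every CG dinucleotide, the target of DNA methylation, in capitals. They lie at chr6:52213018-52213317 for Hoxa3, chr6:52204538-52204837 for Hoxa5, chr6:52218524-52218823 for Hoxa7 and chr6:52227321-52227620 for Hoxa9, all on the minus strand, and at chr11:96318017-96318316 for Hoxb4, on the plus strand.
Hoxa3: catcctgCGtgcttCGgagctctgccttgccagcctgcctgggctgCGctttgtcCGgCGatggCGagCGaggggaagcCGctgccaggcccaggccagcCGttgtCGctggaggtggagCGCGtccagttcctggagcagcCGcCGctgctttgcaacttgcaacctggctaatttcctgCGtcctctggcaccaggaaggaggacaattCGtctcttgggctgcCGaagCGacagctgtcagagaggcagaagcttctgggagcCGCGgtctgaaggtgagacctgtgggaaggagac
Hoxa5: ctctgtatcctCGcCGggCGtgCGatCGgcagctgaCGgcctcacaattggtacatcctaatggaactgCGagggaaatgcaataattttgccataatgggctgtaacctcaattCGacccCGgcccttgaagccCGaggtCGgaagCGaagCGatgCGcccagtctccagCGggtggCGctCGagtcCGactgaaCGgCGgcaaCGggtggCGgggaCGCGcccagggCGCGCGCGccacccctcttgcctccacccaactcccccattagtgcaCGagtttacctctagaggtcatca
Hoxa7: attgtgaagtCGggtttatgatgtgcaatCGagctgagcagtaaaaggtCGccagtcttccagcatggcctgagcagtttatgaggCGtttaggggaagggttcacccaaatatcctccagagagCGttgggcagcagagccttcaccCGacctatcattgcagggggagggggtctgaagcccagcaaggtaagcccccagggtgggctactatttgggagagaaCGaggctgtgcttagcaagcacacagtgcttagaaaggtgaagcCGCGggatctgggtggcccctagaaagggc
Hoxa9: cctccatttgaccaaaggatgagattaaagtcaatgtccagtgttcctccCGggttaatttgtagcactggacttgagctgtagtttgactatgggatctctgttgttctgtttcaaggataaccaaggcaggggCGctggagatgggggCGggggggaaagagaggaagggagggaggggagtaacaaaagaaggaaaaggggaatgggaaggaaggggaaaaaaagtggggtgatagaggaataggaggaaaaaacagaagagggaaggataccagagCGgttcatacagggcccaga
Hoxb4: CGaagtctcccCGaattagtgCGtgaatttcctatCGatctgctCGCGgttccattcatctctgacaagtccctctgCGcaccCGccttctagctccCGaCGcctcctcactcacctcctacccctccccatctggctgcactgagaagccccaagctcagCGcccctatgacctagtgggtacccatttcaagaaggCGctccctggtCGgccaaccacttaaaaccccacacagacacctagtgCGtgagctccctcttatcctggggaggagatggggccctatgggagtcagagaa
The windows differed widely in CG content. The Hoxa5 window had 29 CG dinucleotides, more than 87.1% of the 32851 promoter entries, and the Hoxa9 window had 4, more than 31.4% of them. Hoxa3 had 20, Hoxb4 had 14 and Hoxa7 had 9, against a median of 7 over all entries. Searched on both strands, the TATA motif TATAAA was in 1 of the 7 member entries, a Hoxa10 window not printed here, and in 13.6% of all entries. The CCAAT motif was in 2 of the 7, those of Hoxa5 and the same Hoxa10 start, and in 37.4% of all entries. The MEIS motif TGACAG was in 1 of the 7, that of Hoxa3, and in 19.2% of all entries. The HOX-PBX motif TGATNNAT (8.85% of all entries) and the E-box CACGTG (7.15%) were in none of the 7. Motif matches may overlap each other and describe letters only, and the arrays do not show which start was used. By position, the Hoxa3 window lies between those of Hoxa5 and Hoxa7. It is thus the start of a long Hoxa3 model that spans Hoxa5, and no other Hoxa3 start is shown.

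The Hoxa members had lower signal in Med12 knockouts over most of the cluster, and the Hoxb members did not share a direction. Before these genes, Med12 itself was read: controls gave signals of 278.6, 837.4 and 441.6 and knockouts of 89.1, 100.4 and 86.4, a log2 difference of -2.17 (SE 0.38; limma adjusted p = 0.0796) with no overlap between the groups. The place of its single probe set relative to the deleted part is not known here. In the fit over all probe sets with limma, 343 of 45037 passed an adjusted p of 0.05, or 0.762% (0.542% in the lower direction), and 0 of the 18 member probe sets did, so 0 of the 10 genes where 0.989% of all genes passed. At an unadjusted p under 0.05 in limma, 6 of the 18 were lower, all of them Hoxa, where 9.89% of all probe sets were. By gene, 4 of the 10 were lower at that level, where 10.3% of all genes were. Of the genes that passed, 64 rose and 116 fell; this became 251 and 141 after median centring, and 65 and 77 after quantile normalization. Without the dimmest 25% or the dimmer 50% of probe sets, 2 member probe sets passed in limma, both of Hoxa3; under these filters 2.11% and 3.39% of all probe sets tested passed. The 343 calls rested on having all arrays: leaving out any 1 array left between 0 and 10. A signal under 16 is called dim here. The controls had 41.6% to 42.3% of their probe sets at such signals and the knockouts 45.5% to 49.5%. In sorted bulk RNA, fewer cells of a type and less RNA per cell cannot be told apart.

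Hoxa3 had the smallest p of the members. Hoxa3 is a low-numbered gene known for thymus and parathyroid development and for restraining blood formation from endothelium. Its brightest probe set had signals of 175.5, 324.1 and 228.5 in controls and 96.0, 56.0 and 58.4 in knockouts, so that every knockout lay below every control. The means were 243 ± 75.3 and 70.1 ± 22.4 (SD, n = 3 each), a ratio of 3.46, and the log2 difference was -1.58 (SE 0.28; 95% interval -2.26 to -0.89; limma adjusted p = 0.0808). The log2 values here and below are of signal plus 16, which understates changes of dim genes. Under the filters above its adjusted p was 0.0386 and 0.0341, and over all alternatives it ran from 0.0341 to 0.225. A second Hoxa3 probe set, of a type whose probes can match several transcripts, had signals of 123.1, 104.2 and 74.1 in controls and 38.2, 7.1 and 18.4 in knockouts. Its log2 difference of -1.71 (SE 0.34; limma adjusted p = 0.1) was of similar size, again with no overlap. The other 2 Hoxa3 probe sets were under 17 on every array, with log2 differences of -0.30 and -0.46. The longest Hoxa3 model in RefSeq spans Hoxa4, Hoxa5 and Hoxa6, so a Hoxa3 probe set may not read that gene alone.

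Hoxa5 and Hoxa7, in the middle of the cluster, were lower on all knockout arrays. Hoxa5 is a homeodomain factor linked to the choice between myeloid and erythroid fates. Its brighter probe set had signals of 202.2, 124.8 and 58.6 in controls and 45.1, 12.7 and 30.6 in knockouts, with a log2 difference of -1.60 (SE 0.46; 95% interval -2.74 to -0.47; limma adjusted p = 0.188). The second Hoxa5 probe set gave 54.2, 69.0 and 91.4 against 40.9, 46.8 and 14, and a log2 difference of -0.86 (SE 0.33; limma adjusted p = 0.289). The groups did not overlap in either probe set, but control replicate 3 was the lowest control in the first and the highest in the second. Hoxa7, a gene of the leukaemia signature of MLL fusions, had signals of 88.1, 105.6 and 160.2 in controls and 35.1, 58.6 and 23.2 in knockouts. Its means were 118 ± 37.6 and 39.0 ± 18.0, a ratio of 3.03, with a log2 difference of -1.30 (SE 0.31; 95% interval -2.05 to -0.55; limma adjusted p = 0.132). None of these reached the threshold under any alternative tried.

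Hoxa9 and Hoxa10, at the 5′ side, had smaller differences. Hoxa9 supports the growth of stem cells and progenitors, and with MEIS1 it transforms them. Its brighter probe set had signals of 788.2, 903.6 and 564.2 in controls and 540.3, 455.5 and 304.6 in knockouts. The groups did not overlap, although the lowest control, replicate 3, was close to the highest knockout; the means of 752 ± 173 and 433 ± 119 gave a ratio of 1.73 and a log2 difference of -0.78 (SE 0.27; limma adjusted p = 0.251). The second Hoxa9 probe set went against this on 1 array: it had 322.4, 877.2 and 368.8 in controls and 173.4, 183.3 and 999.3 in knockouts, so that knockout replicate 3 was the highest of all 6. Its log2 difference was -0.53 (SE 0.75; limma adjusted p = 0.802), and -1.33 without knockout replicate 3 (limma adjusted p = 0.373). It was near 0 without control replicate 2 (-0.10), knockout replicate 1 (-0.12) or knockout replicate 2 (-0.15). Hoxa10, a factor of early myeloid progenitors, had overlapping signals of 124.8, 180.5 and 78.7 in controls and 116.4, 99.2 and 125.8 in knockouts. Its log2 difference was -0.09 (SE 0.28; 95% interval -0.78 to 0.59; limma adjusted p = 0.924), and it turned positive with median centring (0.18), with quantile normalization (0.03) and when control replicate 2 was left out (0.16). The interval includes moderate differences in both directions, so it does not show that Hoxa10 was unaltered. The other Hoxa10 probe set was under 6 on all arrays.

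**Figure D1:**
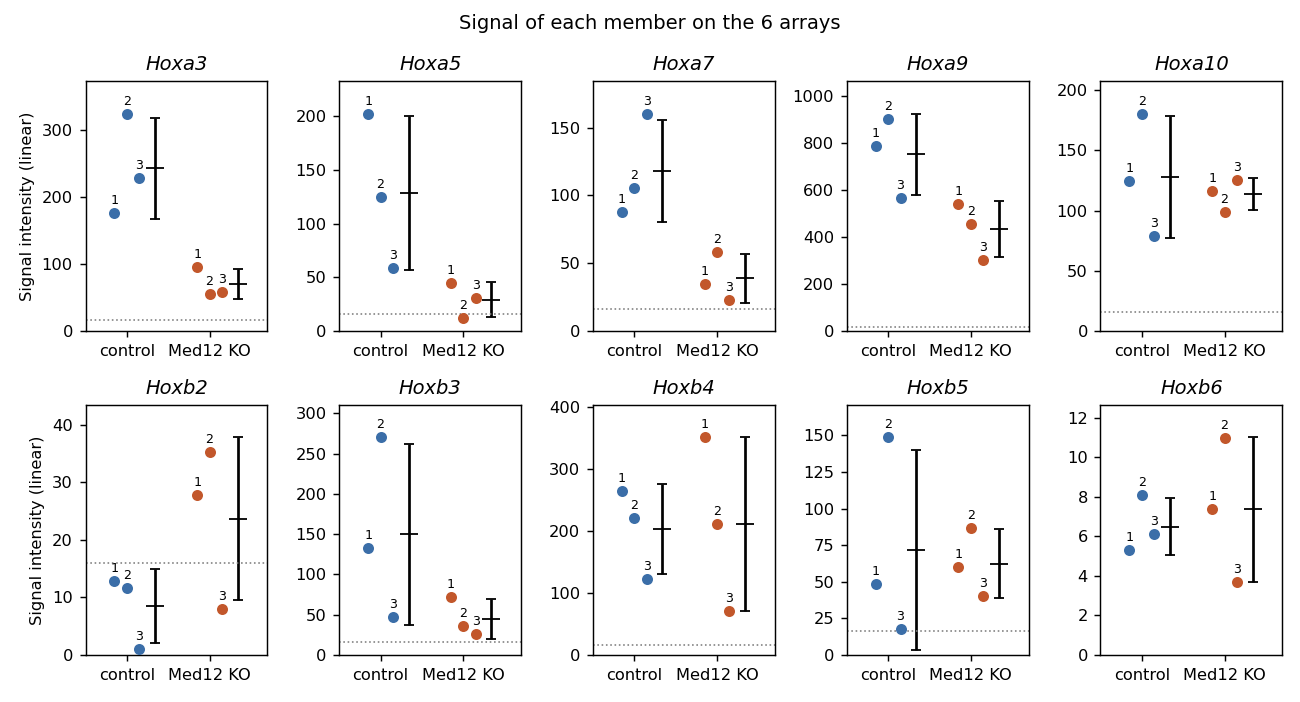
Linear signal intensity (y axis, a scale for each gene) of the brightest probe set of each member on the 3 control (blue) and 3 Med12 knockout (orange) arrays, numbered by replicate; black marks are the mean and SD, and the dotted line is a signal of 16. Knockout signals lie below all control signals for Hoxa3, Hoxa5, Hoxa7 and Hoxa9, and the groups overlap for Hoxa10 and for all 5 Hoxb genes.

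Among the Hoxb members, Hoxb3 was the only gene with a large negative value, and it varied widely between controls. Hoxb3 is a paralogue of Hoxa3 that is active in early progenitors. Its brighter probe set had signals of 132.8, 270.1 and 47.3 in controls and 72.4, 35.6 and 25.8 in knockouts, overlapping through control replicate 3. The log2 difference was -1.27 (SE 0.59; 95% interval -2.72 to 0.17; limma adjusted p = 0.374). It was -1.84 without control replicate 3 (limma adjusted p = 0.187) and -0.75 without control replicate 2 (limma adjusted p = 0.564). The second Hoxb3 probe set had 61.2, 141.9 and 0.5 in controls and 15.2, 31.2 and 13.2 in knockouts, with control replicate 3 the lowest of all 6. Its log2 difference was -0.74 (SE 0.81; limma adjusted p = 0.733), -1.66 without control replicate 3 and -0.03 without control replicate 2. The longest Hoxb3 model in RefSeq spans Hoxb4.

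Hoxb4 and Hoxb5, both tied to stem cells, showed no direction that held. Hoxb4, which expands stem cells when overexpressed, had signals of 264.3, 220.7 and 122.2 in controls and 350.5, 211.1 and 71.0 in knockouts: the knockout arrays held both the highest and the lowest value. Its log2 difference of -0.11 (SE 0.57; 95% interval -1.51 to 1.28; limma adjusted p = 0.957) became positive with median centring (0.16) and when control replicate 1 (0.10) or knockout replicate 3 (0.46) was left out. The dimmer Hoxb4 probe set, with 67.0, 21.6 and 8.6 in controls and 11.1, 23.6 and 15.8 in knockouts, had a log2 difference of -0.39 (SE 0.45). Hoxb5, a marker of long-lived stem cells, had signals of 48.6, 148.6 and 18.0 in controls and 60.2, 87.0 and 39.9 in knockouts, and the knockout values lay inside the control range. Its log2 difference of 0.09 (SE 0.59; limma adjusted p = 0.966) became -0.04 with array weights, -0.13 without knockout replicate 2 and -0.44 without control replicate 3.

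Hoxb2 and Hoxb6 were dim. Hoxb2, known for patterning of the hindbrain, had 12.9, 11.6 and 1.1 in controls and 27.9, 35.3 and 8.0 in knockouts. It had the highest log2 difference of the members, 0.66 (SE 0.35; 95% interval -0.21 to 1.53; limma adjusted p = 0.441), with the groups overlapping through knockout replicate 3. Hoxb6 stayed between 3.7 and 11 on all arrays, so its log2 difference of 0.04 describes dim signal only and carries little on its level.

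**Figure D2:**
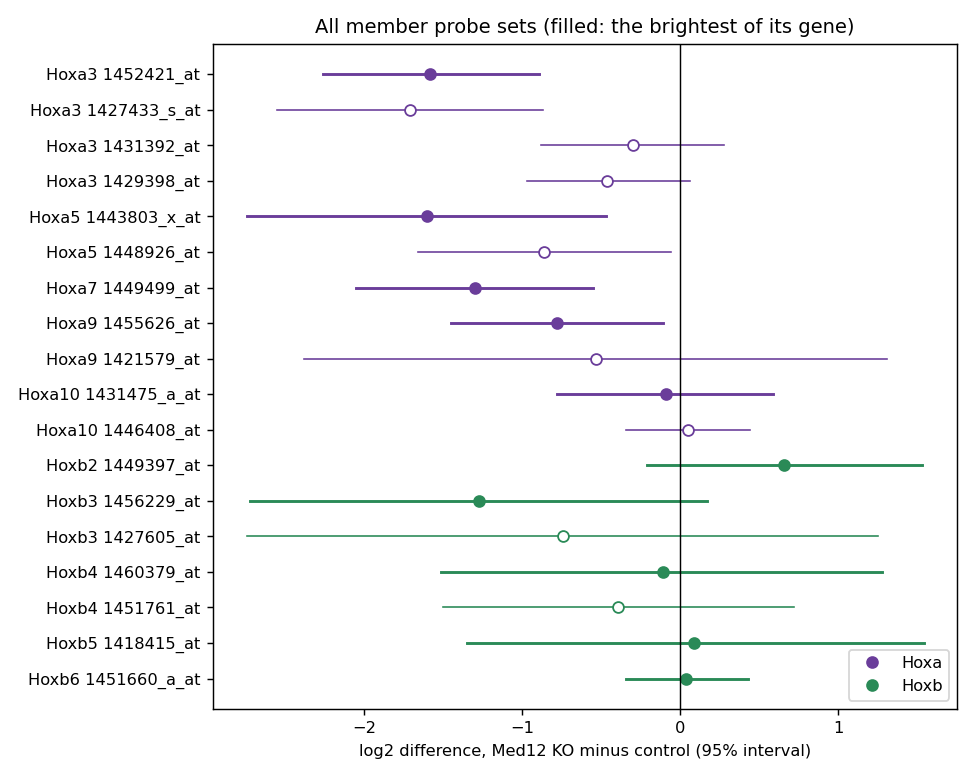
Log2 difference (knockout minus control, of signal plus 16; x axis) with limma's 95% interval for each of the 18 member probe sets, Hoxa in purple and Hoxb in green; filled points mark the probe set that represents its gene. The intervals of 6 Hoxa probe sets lie wholly below 0, and all 7 Hoxb intervals include 0.

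Set side by side, the clusters differed in how many members were lower. All 5 Hoxa genes had a negative log2 difference, or 4 after median centring and after quantile normalization, where Hoxa10 turned positive; of the Hoxb genes 2 were negative and 3 positive (1 and 4 after median centring), where 57.8% of all genes were negative (27.4% after median centring and 46.3% after quantile normalization). In 4 of the 5 Hoxa genes and 0 of the 5 Hoxb genes the knockouts all lay below the controls, as they did for 13.6% of all genes. The opposite, all knockouts above all controls, held for 0 of the 10 (9.85% of all genes) and 0 of the 18 probe sets (7.61% of all). Counted by probe set, the knockouts all lay below the controls in 7 of 11 for Hoxa and 0 of 7 for Hoxb, where 13.3% of all probe sets did so. A gene can count more than once among the 7. They include a Hoxa3 probe set under 16 on all arrays, whose lowest control read 2.2 and highest knockout 2.1. The median log2 difference was -1.30 for Hoxa and 0.04 for Hoxb, and -0.05 over all 18193 genes. The Hoxb median was the value of Hoxb6, which was under 16 on all arrays, and Hoxb2 was under 16 on all controls. These genes had little room to be lower, which limits the Hoxb counts and median. Without the dimmer 50% of probe sets, 3 Hoxb genes remained, with a median of -0.11, and the Hoxa median stayed at -1.30. Centring each array on its median moved the median of all genes to 0.22. Relative to all genes, the Hoxa median was -1.25, and between -1.65 and -0.80 over the alternatives, while the Hoxb median was 0.09 and took both signs, from -0.37 to 0.36.

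On each array, a gene's log2 signal was set against its control mean and the median over 5 genes was taken. For Hoxa the controls were at 0.03, 0.29 and -0.38 and the knockouts at -1.11, -0.81 and -1.50. Every knockout array lay below every control array. For Hoxb the controls were at 0.10, 0.21 and -0.60 and the knockouts at 0.10, 0.26 and -0.35, which overlapped throughout. Control replicate 3 had the lowest control signal in 6 of the 7 Hoxb probe sets, and knockout replicate 3 the lowest knockout signal in 6 of the 7. Hoxb3 and Hoxb4 count more than once among the 7. Of the 11 Hoxa probe sets, control replicate 3 was the lowest control in 6, and knockout replicates 2 and 3 the lowest knockout in 5 each. Such shares were not counted over all probe sets. The median signal of control replicate 3 over all probe sets, 26.7, was close to the 26.8 and 26.9 of the other controls, while knockout replicate 3 had 16.6 against 20.6 and 21.3. The part of these arrays in the Hoxb values was not tested. The gap between the cluster medians, -1.34, shrank to -0.67 without control replicate 3, where the Hoxb median was -0.41.

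**Figure D3:**
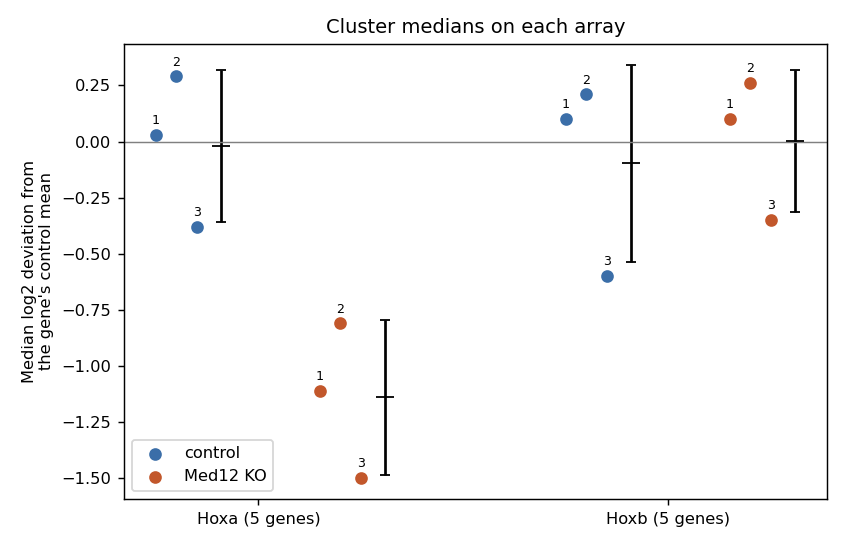
Median over the 5 genes of each cluster of the log2 deviation from the gene's own control mean (y axis) on each control (blue) and Med12 knockout (orange) array, numbered by replicate; black marks are the mean and SD of the 3 arrays. The Hoxa knockout arrays, from -1.50 to -0.81, lie below the Hoxa controls, from -0.38 to 0.29, and the Hoxb groups overlap.

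The clusters share 2 paralogue pairs among the members, and a comparison within a pair was added after the values had been seen. The log2 ratio of Hoxa3 to Hoxb3, relative to its control mean, came to -0.49, -0.60 and 1.1 in controls, and in knockouts to -0.51, -0.37 and -0.02. The knockouts lay inside the control range, and the ratio differed by -0.30 between groups (two-sided exact permutation p = 0.9). The ratio of Hoxa5 to Hoxb5 came to 0.87, -1.11 and 0.25 in controls, and in knockouts to -1.21, -2.73 and -1.15, a difference of -1.70. All knockouts lay below all controls, narrowly at control replicate 2, which gives the smallest p that 3 arrays against 3 allow (exact permutation p = 0.1; 0.2 adjusted over the 2 pairs).

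The remaining genes of both clusters were measured mostly at dim signal. Hoxa2, next to Hoxa3 and active in hindbrain and neural crest, had signals of 42.2, 18.6 and 24.3 in controls and 5.4, 12.6 and 6.9 in knockouts, without overlap (log2 -0.84; SE 0.23; limma adjusted p = 0.176). Hoxa4, between Hoxa3 and Hoxa5, had 58.0, 27.3 and 41.8 against 10.8, 27.5 and 12.7, with 1 knockout just above the lowest control (log2 -0.82; SE 0.28; limma adjusted p = 0.239). Of the other Hoxa cluster genes, Hoxa11, Hoxa13 and the neighbouring Evx1 were under 16 on all arrays, with log2 differences of 0.02, -0.03 and -0.27, of which those of Hoxa13 and Evx1 turned to 0.24 and 0.00 after median centring. In the Hoxb cluster, Hoxb1, Hoxb9 and Hoxb13 were under 16 on all arrays, and Hoxb7 reached 19.0 on 1 (log2 -0.39; SE 0.25; limma adjusted p = 0.528). Of 15 measured Hoxc and Hoxd genes, 13 were under 16 on all arrays and 0 passed, with a median of -0.01 (0.26 after median centring). Along the Hoxa cluster, the negative values ran from Hoxa2 to Hoxa9, where signal was measurable, and those nearest to 0 belonged to Hoxa10 and to the dim Hoxa11 and Hoxa13. Dim probe sets have little room to differ on this scale. Hoxa6 and Hoxb8 were not analysed here.

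**Figure D4:**
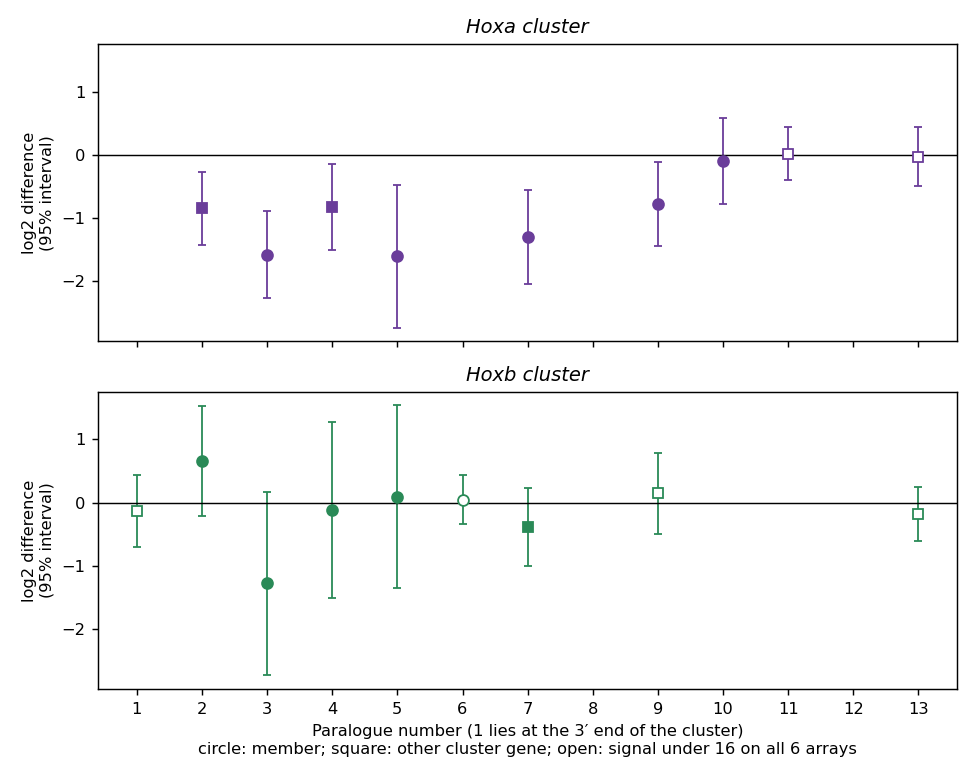
Log2 difference (knockout minus control; y axis) with limma's 95% interval against paralogue number for the Hoxa (top) and Hoxb (bottom) genes, 1 probe set a gene; circles are members, squares other cluster genes, and open symbols genes under 16 on all 6 arrays. The Hoxa genes from 2 to 9 lie between -1.60 and -0.78 and Hoxa10 is at -0.09, or above 0 after median centring and quantile normalization; the Hoxb values lie on both sides of 0.

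The DNA-binding partners of Hox proteins were mostly lower, and none passed. Of 10 TALE cofactor genes, 8 had a negative and 2 a positive log2 difference (median -0.30), or 6 and 4 after median centring (median -0.02), where 57.8% and 27.4% of all genes were negative. Tgif1, a TALE repressor, had signals of 245.9, 516.6 and 337.2 in controls and 126.1, 136.9 and 118.2 in knockouts, with no overlap (log2 -1.36; SE 0.27; limma adjusted p = 0.0971, or 0.0499 without the dimmer 50% of probe sets). The related Tgif2 was at -0.60, Meis3 at -0.39 and Pbx4 at -0.66. Meis1, the main partner of HOXA9 and named here for that role after its values were seen, was read by 3 probe sets that were all negative. The brightest had overlapping signals of 480.6, 581.3 and 385.5 in controls and 422.4, 443.0 and 303.6 in knockouts (log2 -0.30; SE 0.22; limma adjusted p = 0.586). The third had 124.8, 227.3 and 99.3 against 68.0, 50.5 and 39.9 (log2 -1.22; SE 0.32; limma adjusted p = 0.155), and the second was at -0.62. The probe sets of Meis1 thus differed in size, and only that at -1.22 had groups that did not overlap.

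Regulators of the clusters did not share a direction. Of 23 measured activators, 15 were lower, 8 higher and 0 passed (median -0.07), but after median centring 7 were lower and 16 higher (median 0.21). These are 65.2% and 30.4% lower, beside 57.8% and 27.4% of all genes; after quantile normalization it was 69.6% beside 46.3%. Aff4, a scaffold of the super elongation complex, had 508.4, 444.8 and 412.3 in controls and 298.2, 226.2 and 239.8 in knockouts (log2 -0.80; SE 0.16; limma adjusted p = 0.0955). Menin (Men1), which tethers MLL, was at -1.1 (SE 0.58; limma adjusted p = 0.434), a value that leaned on the 602.0 of control replicate 3 against 137.4 and 129.8 in the other controls. Dpy30, a core subunit of these methyltransferase complexes, was at 0.45, and the caudal factor Cdx2 at -0.33 with signals no higher than 22.8. Of 13 Polycomb genes, 6 were lower, 7 higher and 0 passed (median 0.12, or 0.40 after median centring). Ezh2, the H3K27 methyltransferase, had 784.2, 575.5 and 516.7 in controls and 1094.0, 1020.3 and 906.6 in knockouts (log2 0.69; SE 0.19; limma adjusted p = 0.171), and its paralogue Ezh1 had 175.8, 229.9 and 185.1 against 151.3, 123.8 and 131.1 (log2 -0.49; SE 0.15; limma adjusted p = 0.210). Both groups were apart in each, in opposite directions. Phc2 was at 0.73 and Cbx2 at -0.78.

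Genes known as targets of HOXA9 and MEIS1 were lower in most cases. Of 16 on the list, 14 were lower and 2 higher, 0 passed, and in 10 the knockouts all lay below the controls (13.6% of all genes); the median was -0.43 (-0.15 after median centring). Flt3 and Cd34 of this list are also on the marker lists of the sorted fraction. Flt3, a receptor of early lymphoid and myeloid progenitors, had 657.1, 1028.4 and 1087.8 in controls and 125.9, 42.5 and 13.8 in knockouts (log2 -3.87; SE 0.58; limma adjusted p = 0.0573). The progenitor factor Sox4 was at -1.95 (SE 0.31; limma adjusted p = 0.0656) and the factor Etv6 at -1.04 (SE 0.18; limma adjusted p = 0.0800). Trib2, a pseudokinase that is a target of MEIS1, had the opposite sign, with 65.1, 74.7 and 47.0 in controls and 288.9, 133.8 and 267.3 in knockouts (log2 1.6; SE 0.31; limma adjusted p = 0.0956). Flt3 and Sox4 passed with a trended, robust prior (limma adjusted p = 0.0125 and 0.0178), where 1.02% of all probe sets passed. They also passed after median centring (0.0338 and 0.0404, with 1.54% of all). The same held without the dimmest 25% (0.0118 and 0.0235) or the dimmer 50% of probe sets (0.0116 and 0.0215). Under the other alternatives neither passed, with adjusted p up to 0.193 and 0.18. The lowest limma adjusted p over all alternatives was 0.0451 for Etv6 and 0.0415 for Trib2.

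Marker genes of progenitor types within and beside the gate differed on the same arrays. Over all 18193 genes, 57.8% were lower, and 116 fell and 64 rose at the adjusted threshold. Of 8 genes of the gate and of stem cells, 7 were lower. Their summed signal had a range of 6121 to 8807 over controls and 2642 to 3317 over knockouts. Hlf of this list fell (log2 -2.17; limma adjusted p = 0.0479), but 0 of the 8 fell after quantile normalization. Kit, which encodes the sorted c-Kit, had 805.2, 1014.6 and 1425.4 in controls and 514.8, 556.2 and 617.5 in knockouts (log2 -0.89; limma adjusted p = 0.152), and Cd34 was at -1.43. The summed signal of 9 granulocyte-monocyte progenitor genes went from a range of 9482 to 17453 to one of 859 to 1970. Of the 9, 6 fell (5 after quantile normalization and 5 after loess), among them Mpo (log2 -3.46; limma adjusted p = 0.0363). The sum over 10 early lymphoid genes went from 5969 to 6760 down to 1372 to 1494. Of the 10, 5 fell (4 after quantile normalization and 4 after loess). Among them was Dntt (log2 -6.76; limma adjusted p = 0.00506), whose 3 probe sets read at most 34.4 on any knockout array. Of 9 erythroid genes 7 rose (5 after quantile normalization and 3 after loess), among them Gata1 (log2 2.03; limma adjusted p = 0.0424), and their sum went from 1707 to 2196 up to 5499 to 9037. The sums of 7 megakaryocyte genes (3557 to 5003 against 5702 to 7403) and of 6 mast cell and basophil genes (1256 to 1462 against 2055 to 2308) were higher. In each list 1 gene rose, and none after loess normalization. In the mast cell and basophil list 5 genes were higher and 1 lower. The lower was Mcpt8, with 176.5, 212.7 and 207.8 in controls and 20.7, 181.3 and 24.7 in knockouts (log2 -1.69; SE 0.66; limma adjusted p = 0.298). Of 8 genes listed as markers of mature cells that the sort removes, none passed and 6 were lower. Their sum ran from 1414 to 1819 over controls and 983 to 1107 over knockouts. Most of it was Ptprc, the pan-leukocyte CD45 (means 1393 and 940), which is not confined to mature cells. The lower sum therefore does not show fewer mature cells. Ptprc and the neutrophil gene Camp (27.1 and 14.3) were lower on every knockout array, while Cd8a (29.4 and 19.9) and Cd3e (11.7 and 4.87) overlapped. The sum over 10 endothelial and stromal genes ran from 1918 to 2266 over controls and 1097 to 1568 over knockouts, and none of them passed. Its largest parts were Pdgfrb (means 833 and 493), Egfl7 (641 and 416) and Pecam1 (445 and 185), while the endothelial Cdh5 read at most 11.3. Whether the lower sum reflects fewer endothelial or stromal cells was not tested. In this list 6 genes were lower and 4 higher (4 and 6 after median centring): the endothelial Pecam1 (log2 -1.24) lay below all controls, and the endothelial Plvap (1.59) and the collagen gene Col1a2 (0.87) above them. The part of these shifts in the Hox values was not tested. Sca1 itself (Ly6a) was not analysed here.

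By their pattern over the 6 arrays, the genes most like Hoxa9 among 7877 of mean signal at least 100 were 4930515G01Rik, Tnrc6c, Rnpep, Acsf2 and Afap1l1, with Pearson correlations of log2 values from 0.983 to 0.992. Those most like Hoxb4 were Chd1l, Gde1, Ppfibp1, Pex2 and Sema4b, from 0.971 to 0.991. The highest of so many correlations over 6 points are high by selection and describe these arrays only. The first 5 had log2 differences between -2.66 and -0.64, and the second 5 between -0.23 and 0.02.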

How the data were processed

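The authors deposited 1 linear signal intensity per probe set and array for 6 arrays. The submitters' processing notes name RMA, but these values hold zeros and have a mean of 150.0 on every array after 2% is left out at each end, so how they were made is not given in the sources used here. Per the labels, 5 ng of RNA was amplified before labelling.

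Values were taken as log2(intensity + 16). Control probe sets (64 of 45101) were left out, and 45037 were compared between groups with limma 3.58.1 in R 4.3.3 (lmFit and eBayes, two-sided, 4 residual and 1.96 prior degrees of freedom; Benjamini-Hochberg adjustment over all probe sets; threshold 0.05). Each gene was read from 1 probe set, the one with the highest mean signal. Entrez numbers of all 18 member probe sets matched the RefSeq table of GRCm38.p6, with symbols unchanged; 163 of 180 list entries matched. The number of arrays limits the precision. The fit was tested on simulated data.

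The members and lists were chosen with earlier results of these data known. Named genes were all members, at most 4 of each other list by lowest unadjusted p, Med12, and the 5 genes most like the brightest Hoxa and Hoxb member. Hoxa11, Meis1, Mcpt8, Hoxb5os, Pbxip1 and 3 antisense transcripts fell outside this rule and were named after their values were seen. Median centring, quantile and loess normalization, array weights, other priors, offsets, filters, a replicate block and leaving out each array were alternatives. All value columns were used (0 left out).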

Additional observations from a re-analysis of the deposited data

How the results depend on the processing

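The count of 343 passing probe sets was 84 with a floor at 16, 42 with an offset of 1, 693 after median centring, 712 and 763 without the dimmest 25% and the dimmer 50% of probe sets, and 0 to 10 without any 1 array. Member probe sets passing numbered 2 under each of the 2 filters, where fewer probe sets are tested and 2.11% (dimmest 25% left out) and 3.39% (dimmer 50% left out) of all passed, and 0 elsewhere. The Hoxa median was -1.65 with the floor and -0.82 with an offset of 64, by construction of these scales, and -1.35 to -1.08 without 1 array. The Hoxb median was -0.41 to 0.31 without 1 array. The gap between the medians was -1.18 with array weights, -1.70 with the floor or an offset of 1, -0.81 with an offset of 64, -1.19 without the dimmer 50%, -1.05 when a gene's probe sets were averaged, and -1.45 to -0.67 without 1 array.

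Of 295 values of member probe sets under 17 alternatives, 278 kept direction and side of the threshold, 13 reversed and 4, all Hoxa3, passed. Reversed values were those of Hoxa10 (0.18 after median centring, 0.03 after quantile normalization, -0.36 to 0.16 without 1 array; its dim probe set -0.09 without knockout replicate 2), Hoxb4 (0.16 after median centring, -0.57 to 0.46 without 1 array, 0.10 being without control replicate 1; its dim probe set -0.78 to 0.09), Hoxb5 (-0.04 with array weights, 0.00 with an offset of 64, -0.44 to 0.70 without 1 array, -0.13 being without knockout replicate 2) and Hoxb6 (-0.07 without knockout replicate 2). Among other named genes, Hoxa13 turned to 0.09 after loess, 0.24 after median centring, 0.13 after quantile normalization, and -0.12 to 0.12 without 1 array; after median centring Evx1 was at 0.00, Hoxb1 at 0.14, Hoxb13 at 0.09 and Hoxd1 at 0.15; without 1 array Hoxb1 was at -0.30 to 0.06 and Hoxb9 at -0.02 to 0.35. The causes were not tested. Probe sets at the floor on all arrays gave no value there.

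Over all probe sets, deviations from the group means correlated at 0.019, 0.019 and 0.0019 in the 3 same-numbered pairs. Many of these probe sets were dim, so the correlations cannot decide whether the replicate numbers pair the arrays. With the number as a replicate block 0 probe sets passed in limma (6752 at an unadjusted p under 0.05), and Hoxa3 had an adjusted p of 0.204. In the brightest probe sets the block lowered the SE of Hoxb2 (0.35 to 0.16), Hoxb3 (0.59 to 0.44), Hoxb4 (0.57 to 0.25), Hoxb5 (0.59 to 0.32) and Hoxb6 (0.16 to 0.15). It also lowered that of Hoxa5 (0.46 to 0.36) and Hoxa9 (0.27 to 0.16). It raised that of Hoxa3 (0.28 to 0.33), Hoxa7 (0.31 to 0.34) and Hoxa10 (0.28 to 0.31).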

Other observations

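Further transcripts near the Hox genes and their partners were read by the arrays and were chosen after their values were seen. Hoxb5os, an antisense transcript of the Hoxb cluster, had signals of 78.8, 84.9 and 75.1 in controls, a narrow range beside that of Hoxb5 itself, and 44.3, 76.8 and 1.5 in knockouts. The groups overlapped and the log2 difference was -1.05 (SE 0.60; limma adjusted p = 0.475). The antisense transcripts Hoxa11os, Evx1os and Hoxd3os1 were under 9 on all arrays. Pbxip1, which encodes a protein that binds PBX factors and hinders their work with Hox proteins, had signals of 319.6, 437.6 and 351.2 in controls and 234.8, 173.4 and 151.4 in knockouts at its brighter probe set. No knockout reached the lowest control there (log2 -0.94; SE 0.21; limma adjusted p = 0.115), while its second probe set, at -0.81, overlapped through 1 array.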
